A study of Homo sapiens with 36 samples.

Results

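Metallothioneins and the genes that export and sense zinc were read across 12 groups of cells labelled MCF-10A, a line of breast epithelium that is not transformed. The 10 genes were the metallothionein genes MT1A, MT1E, MT1F, MT1G, MT1H, MT1M, MT1X and MT2A, the zinc exporter gene SLC30A1 and the sensor gene MTF1. They were taken by the symbol of the probe annotation, with every probe, and a probe was counted as above background where its detection p was under 0.01. Of these 10 genes, 9 had a probe (12 probes in all), out of 20046 genes and 47231 probes on the array. No probe carried the symbol MT1A, which was not analysed here. The genes were selected on values of these same arrays (the detection p), with earlier results of the data in view. Levels and detection are therefore a description, and the tests set the size of a difference against the spread between arrays without being independent evidence for the choice.

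Metallothioneins are small proteins rich in cysteine that bind zinc and copper in the cytosol. The transcription factor encoded by MTF1 senses free zinc and binds metal response elements, which lie in the promoters of the metallothionein genes and of SLC30A1. SLC30A1 encodes the transporter ZnT1, which moves zinc out of the cell across the plasma membrane.

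Total RNA of 36 Illumina BeadChip arrays was measured, with 3 biological replicates in each group. The groups were wild type (mock, no hairpin), shControl (a scrambled hairpin) and 10 lines selected for a lentiviral short hairpin RNA: shATM-1 and shATM-3 (against ATM), shATR-3 and shATR-4 (ATR), shCHK1-3 and shCHK1-4 (CHEK1), shCHK2-1 and shCHK2-2 (CHEK2), and sh53BP1-1 and sh53BP1-2 (TP53BP1). ATM, ATR, CHEK1 and CHEK2 encode kinases of the DNA damage response, and TP53BP1 encodes an adaptor of the same response. The labels do not say whether a line was a clone or a pool, and all groups grew in the same medium, whose metal content is not given in the labels. Each 10 cm plate received 200000 cells, and RNA was taken 48 hours later.

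The 24 arrays of the 8 lines with a hairpin against a kinase went against the cell line label. MTAP, CDKN2A and CDKN2B, which lie in a region that MCF-10A is known to lack, were above background on all 24 of these arrays and on 0 of 12 arrays from wild type, shControl or the sh53BP1 lines. The log2 signal of MTAP ran from 8.98 to 10.43 on the former and from 4.50 to 5.02 on the latter. These lines are called the 8 kinase lines below, and in their comparison with shControl or wild type the hairpin and this difference cannot be told apart. The counts for CDKN2A and CDKN2B leave out 1 probe of each (ILMN_1757255 and ILMN_1670111), above background on 0 of 24 kinase arrays. All 8 epithelial markers on the array were above background on all 36 arrays, and their summed signal overlapped between the 8 kinase lines (15403 to 29824) and the other groups (16203 to 27903). Among these, the group means of KRT14 ran from 6.58 to 12.36. Of the markers of other cell types, 3 endothelial ones summed to 61.1 to 84.3 intensity units in the 8 kinase lines. They summed to 148 to 240 in the other groups. The 9 fibroblast ones summed to 409 to 796 and 383 to 1560, and the 5 leukocyte ones to 1527 to 2536 and 1829 to 5029. Single markers could split fully: PECAM1 was above background on 0 of 24 kinase arrays and 12 of 12 others, and THY1 on 24 and 0. DCN, LUM and CDH5 were above background on 0 kinase arrays and on 5, 3 and 4 others. The part of these markers in the results was not tested. Mean signal lay between 460 and 677 intensity units per array, 33.5% to 38.3% of probes were above background, and the lowest correlation between replicates was 0.982. Against shControl, the target mRNA was lower by test in both sh53BP1 lines (log2 difference -2.64 and -2.34). It was also lower in both shATM lines (-0.90 and -1.03), shCHK2-1 (-0.99) and both shCHK1 lines (-0.25 and -0.27). It was not called in the line labelled shCHK2-2 and was not measured for ATR. Each target was read by its tested probe of highest mean signal.

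Promoter sequences show how the metal response element is placed in these genes. Of the 10 genes, 5 had a row in the promoter table used here (RefSeq, GRCh38.p14), and the 250 bases before the annotated start are printed 5′ to 3′ on the strand of the gene. Capitals mark the core of the metal response element, searched as TGCACNC or TGCGCNC on both strands, so that a match on the other strand reads as its reverse complement. The metallothionein genes form a cluster on chromosome 16, in the order MT4, MT3, MT2A, MT1E, MT1M, MT1A, MT1B, MT1F, MT1G, MT1H and MT1X, while SLC30A1 and MTF1 lie on chromosome 1.
MT2A, chr16:56608334-56608583 (+): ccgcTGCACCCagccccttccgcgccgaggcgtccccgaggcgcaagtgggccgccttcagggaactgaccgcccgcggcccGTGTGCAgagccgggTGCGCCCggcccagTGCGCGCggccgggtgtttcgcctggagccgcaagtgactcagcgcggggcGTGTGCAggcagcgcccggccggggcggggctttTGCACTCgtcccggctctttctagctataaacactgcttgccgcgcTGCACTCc
MT1H, chr16:56669564-56669813 (+): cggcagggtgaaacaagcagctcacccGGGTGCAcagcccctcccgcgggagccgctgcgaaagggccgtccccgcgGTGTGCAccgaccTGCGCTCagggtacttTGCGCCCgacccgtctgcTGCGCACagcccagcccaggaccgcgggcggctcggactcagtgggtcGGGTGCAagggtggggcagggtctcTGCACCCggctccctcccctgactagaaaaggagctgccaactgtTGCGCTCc
MT1X, chr16:56682220-56682469 (+): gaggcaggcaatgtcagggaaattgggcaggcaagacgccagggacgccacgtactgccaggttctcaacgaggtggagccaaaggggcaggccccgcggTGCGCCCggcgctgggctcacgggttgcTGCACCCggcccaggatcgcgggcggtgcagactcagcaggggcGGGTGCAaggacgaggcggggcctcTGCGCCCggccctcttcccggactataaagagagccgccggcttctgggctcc
SLC30A1, chr1:211579162-211579411 (-): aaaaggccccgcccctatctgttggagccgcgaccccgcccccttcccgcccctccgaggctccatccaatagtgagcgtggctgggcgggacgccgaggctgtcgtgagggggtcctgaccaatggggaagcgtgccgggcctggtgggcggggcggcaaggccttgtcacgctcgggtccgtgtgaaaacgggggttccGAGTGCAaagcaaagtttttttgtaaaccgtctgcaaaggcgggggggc
MTF1, chr1:37859593-37859842 (-): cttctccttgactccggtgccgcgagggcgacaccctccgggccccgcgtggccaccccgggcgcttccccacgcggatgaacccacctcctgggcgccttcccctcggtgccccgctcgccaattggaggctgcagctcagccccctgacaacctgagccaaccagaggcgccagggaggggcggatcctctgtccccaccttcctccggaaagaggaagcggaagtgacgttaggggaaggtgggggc

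The MT2A window held 7 matches, the MT1H window 8 and the MT1X window 4. The SLC30A1 window held 1 match and the MTF1 window 0. In 35116 windows of the same length, 24.8% held at least 1 match, 0.37% at least 4, 0.0313% at least 7 and 0.0171% at least 8. The match nearest to the start lay 8 bases before it in MT2A and MT1H, 53 in MT1X and 49 in SLC30A1. A match describes letters in a window and is not a binding site shown in these cells.

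Of the 12 probes, 10 probes of 8 genes passed the filter (above background on all 3 arrays of at least 1 group) and entered the tests. MT1M (ILMN_1657435) and the second MT1H probe (ILMN_1683923) were above background on 0 of 36 arrays. The MT1 genes are near-identical copies of one another and the probe sequences were not used here, so signal at an MT1 probe may include mRNA of another MT1 gene. Signals are log2 values after background correction and quantile normalization, and levels are not compared between probes. Differences were tested with limma in 1 fit over 14872 probes, adjusted by Benjamini-Hochberg at 0.05 within each comparison, and a probe is said to be higher or lower only where it passed.

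MT1G showed the widest range of the metallothioneins. Its log2 signal (ILMN_1715401) was 8.24, 8.40 and 8.51 on the wild type arrays and 9.31, 9.17 and 9.51 on the shControl arrays. The 24 arrays of the 8 kinase lines ran from 10.86 to 13.16 (median 12.03), and the 6 arrays of the sh53BP1 lines from 11.97 to 12.32 (median 12.13). All 30 arrays of the hairpin lines directed at a gene thus lay above all 6 arrays of wild type and shControl, and the 2 control groups did not overlap. The group means of wild type and shATM-1 stood 25.5-fold apart. In RNA of whole cultures, fewer cells that express a gene and less of its RNA per cell cannot be told apart. In the order of the group means, wild type and shControl were lowest, followed by shATR-4, shATM-3, shCHK2-1, shCHK1-4, sh53BP1-1, sh53BP1-2, shCHK2-2, shCHK1-3, shATR-3 and shATM-1. Of the 11 pairs of neighbours in that order, 4 overlapped on single arrays.

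MT1X (ILMN_1775170) followed with a 13.2-fold range of group means, from wild type to shATR-3. Its log2 signal was 9.13, 8.96 and 9.15 in wild type and 10.57, 10.32 and 10.64 in shControl. The 8 kinase lines ran from 11.65 to 12.86 (median 12.33) and the sh53BP1 lines from 11.18 to 11.79 (median 11.46). Wild type, shControl and the 10 lines did not overlap, while the highest sh53BP1 arrays lay within the range of the kinase lines. In 5 of 11 neighbouring pairs the arrays overlapped.

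MT1E gave a bright signal in every group. Its brighter probe (ILMN_2173611) read 12.79, 12.67 and 12.74 in wild type and 12.49, 12.31 and 12.61 in shControl. The 8 kinase lines ran from 13.00 to 14.07 (median 13.73), and the 2 sh53BP1 lines held the highest group means, with arrays from 13.99 to 14.17 (median 14.13). No array of the 10 lines reached down to the controls. The second MT1E probe (ILMN_1718968) was dim: it was above background on 0 of 6 control arrays, on 19 of 24 arrays of the kinase lines and on 6 of 6 arrays of the sh53BP1 lines.

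MT1F (ILMN_1718766) separated the lines differently. It read 9.43, 9.02 and 9.05 in wild type and 9.37, 9.12 and 9.18 in shControl, 2 groups that overlapped. The sh53BP1 lines ran from 9.59 to 9.70 (median 9.68) and the 8 kinase lines from 10.27 to 10.98 (median 10.68). The sh53BP1 arrays thus lay above all control arrays and below all arrays of the kinase lines.

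MT1H (ILMN_2124802) was a gene of low signal with the same order. It was above background on 0 of 6 control arrays, on 5 of 6 arrays of the sh53BP1 lines (5.46 to 5.82, median 5.58) and on 24 of 24 arrays of the kinase lines (6.14 to 7.61, median 6.96). Control arrays read from 4.51 to 5.26 and were not well above background, so the difference from them is a bound. It is the mean of the bright group against the higher of the lowest detected signal and the probe's own signal on each dim array. MT1H was at least 1.38-fold to at least 3.91-fold higher than shControl in the 9 lines where all 3 arrays were above background, which leaves out sh53BP1-2. On the same measure, the dim MT1E probe was at least 1.23-fold to at least 2.12-fold higher in 6 lines.

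MT2A, a metallothionein expressed in most human tissues, varied least among the metallothioneins. Its probe (ILMN_1686664) read 13.63, 13.65 and 13.76 in wild type and 14.20, 14.08 and 14.04 in shControl. The 8 kinase lines ran from 14.17 to 14.60 (median 14.47) and the sh53BP1 lines from 14.37 to 14.54 (median 14.46). Wild type lay below all other groups, and the highest shControl array overlapped with shCHK1-3. The probe stood near the top of the scale, with an uncorrected signal of 11498 to 28577 against array maxima of 21621 to 34999, and how far this compressed its differences was not tested.

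**Figure D1:**
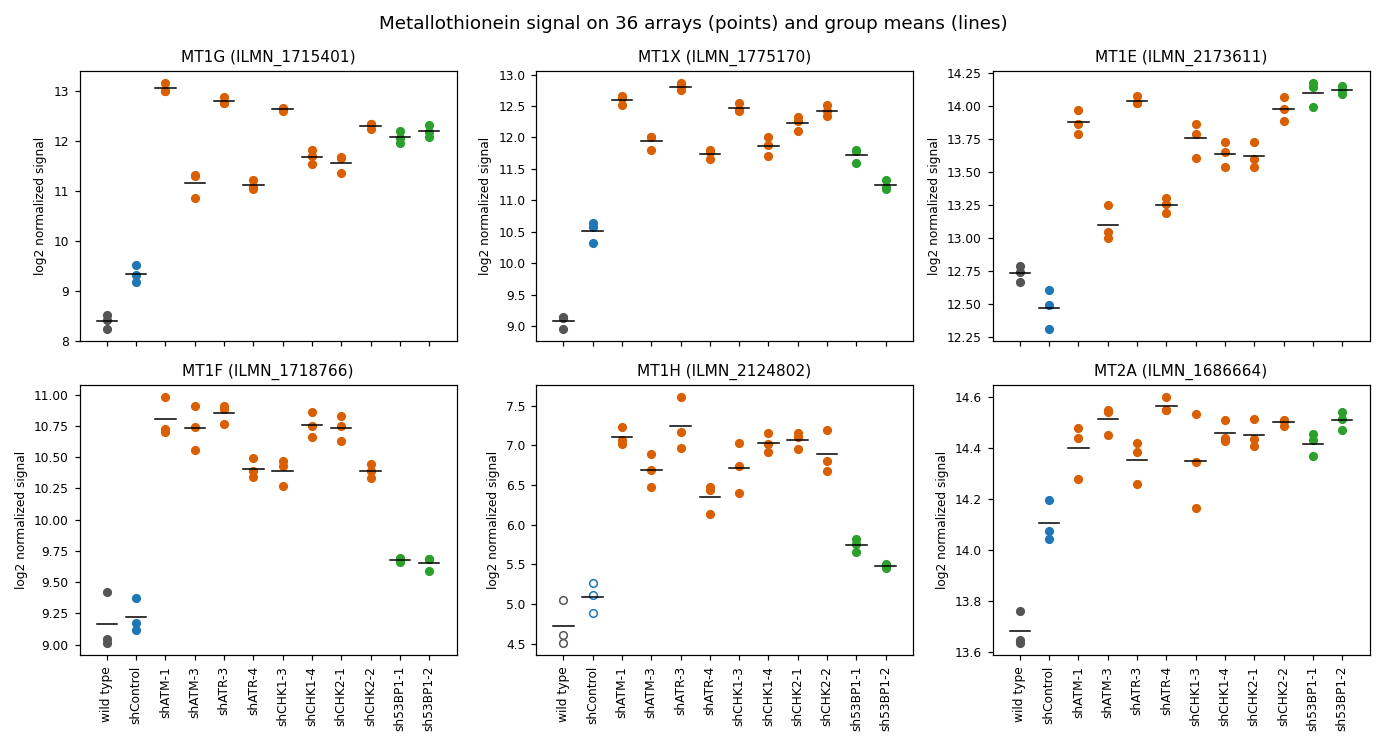
Each panel plots the log2 normalized signal of 1 metallothionein probe on 36 arrays (points, 3 per group) with the group mean (line); open points were not above background, and colours mark wild type, shControl, the 8 kinase lines and the 2 sh53BP1 lines. The vertical axes differ and do not start at 0; for MT1G, wild type lies at 8.24 to 8.51 and the kinase lines at 10.86 to 13.16, and for MT1F the sh53BP1 arrays (9.59 to 9.70) sit between the controls and the kinase lines.

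SLC30A1 was read by 2 probes. The brighter (ILMN_1745021) gave 7.10, 7.14 and 6.85 in wild type and 7.21, 7.29 and 7.43 in shControl, against 7.25 to 8.35 (median 7.96) in the 8 kinase lines and 7.66 to 8.20 (median 7.85) in the sh53BP1 lines. The second (ILMN_2067852) gave 6.83, 6.41 and 6.57 in wild type and 6.45, 6.92 and 6.69 in shControl, against 7.16 to 8.26 (median 7.63) in the kinase lines and 7.32 to 7.72 (median 7.46) in the sh53BP1 lines. Arrays of shCHK2-1 overlapped with shControl at the first probe, and no line overlapped with shControl at the second. Group means spanned 2.30-fold and 2.79-fold, in both cases from wild type to shATR-3.

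MTF1 (ILMN_1763828), the sensor, had the narrowest range of group means among the 10 probes tested. It read 6.80, 6.64 and 6.88 in wild type, 6.98, 6.87 and 7.23 in shControl, 6.79 to 7.66 (median 7.29) in the 8 kinase lines and 6.92 to 7.37 (median 7.25) in the sh53BP1 lines. Its group means spanned 1.77-fold, from wild type to shCHK2-1, and all 11 neighbouring pairs overlapped.

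**Figure D2:**
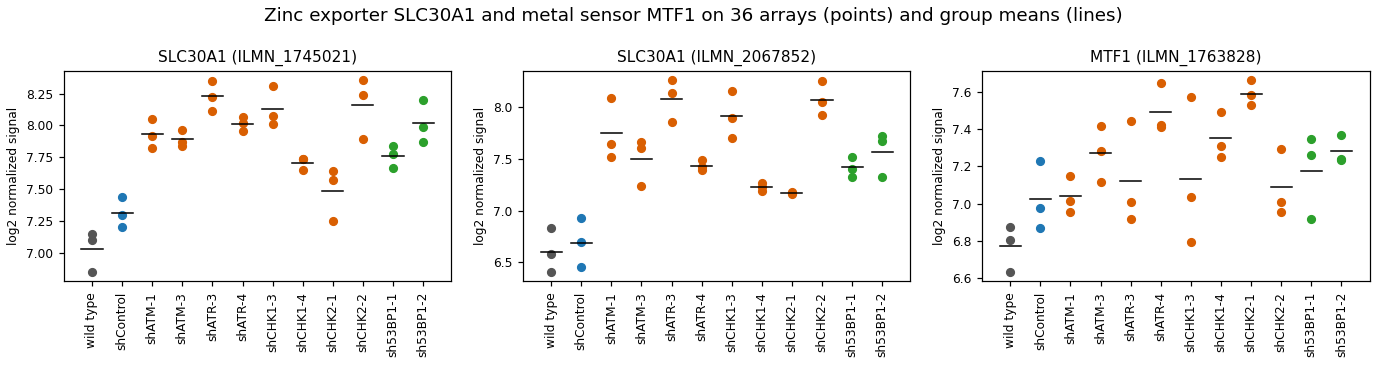
The panels plot the log2 normalized signal of both SLC30A1 probes and of MTF1 on 36 arrays (points) with group means (lines), on axes that do not start at 0. At the second SLC30A1 probe no line reaches down to shControl (highest array 6.92), whereas for MTF1 the arrays of 6 of 10 lines overlap with shControl.

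Each line was next compared with shControl, the control that carried a hairpin. In the 8 kinase lines, the targeted hairpin and the difference in MTAP, CDKN2A and CDKN2B signal cannot be told apart by this comparison. All of these comparisons share the same 3 shControl arrays. Over all probes, the share higher than shControl was 34.5% in shATM-1, 30.5% in shATM-3, 34.9% in shATR-3, 31.2% in shATR-4 and 34.4% in shCHK1-3. It was 33.0% in shCHK1-4, 32.4% in shCHK2-1, 34.8% in shCHK2-2, 29.2% in sh53BP1-1 and 27.5% in sh53BP1-2, so a higher probe was common on these arrays. MT1E (ILMN_2173611), MT1F, MT1G, MT1X, MT2A and the second SLC30A1 probe were higher than shControl in 10 of 10 lines, as was MT1H by test. The first SLC30A1 probe was higher in 9 lines, the dim MT1E probe in 8 and MTF1 in 2. MT1H and the dim MT1E probe passed the filter only through hairpin lines, so their calls against the controls are not independent of the filter.

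In MT1G, the log2 difference from shControl ran from 1.79 ± 0.11 (SE, n = 3 arrays per group) in shATR-4 to 3.73 in shATM-1 (limma adjusted p 2.66e-14 and 1.93e-22), or 3.45-fold to 13.3-fold. MT1X was higher by 0.73 in sh53BP1-2 to 2.30 in shATR-3, and MT1E by 0.63 in shATM-3 to 1.65 in sh53BP1-2. MT1F ran from 0.43 in sh53BP1-2 to 1.63 in shATR-3. MT2A, whose probe stood near the top of the scale, differed by 0.24 ± 0.08 in shCHK1-3 to 0.46 in shATR-4 (limma adjusted p 0.00894 and 1.24e-05). Its call in shCHK1-3 ended without replicate 3 of that line (0.15) and with only the compared groups in the fit (limma adjusted p 0.114), and that of MT1H in sh53BP1-2 (adjusted p 0.0403) ended without any 1 array of that line or without shControl replicate 1 or 2, without the filter on dim probes and with the deposited values.

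SLC30A1 exceeded shControl by 0.48 in shCHK2-1 to 1.40 in shATR-3 at its second probe, and by 0.40 to 0.92 at its first probe in the 9 lines called. In shCHK2-1 the first probe read 0.18 ± 0.12 (limma adjusted p 0.195), though it was called without replicate 2 of that line (0.30), and the call at the second ended without shControl replicate 1 (0.36). MTF1 was higher in shATR-4 (0.47 ± 0.15) and shCHK2-1 (0.57), with limma adjusted p 0.0101 and 0.00209. The shATR-4 call of MTF1 ended without shControl replicate 2 or shATR-4 replicate 2 (both 0.39), and shCHK1-4 was called without shControl replicate 3 (0.43). With the deposited values, which carry no background correction, differences from shControl shrank 1.60 to 1.84 times at the second SLC30A1 probe in 10 lines (from 1.40 to 0.87 in shATR-3), 1.51 to 1.55 times at the first in 4 lines and 1.63 to 1.65 times at MTF1 in its 2 called lines. Against the same control, the fitted values of MT1H shrank 2.33 to 3.36 times in 10 lines and those of the dim MT1E probe 2.73 to 3.01 times in 8, both against shControl arrays not above background. The dim MT1E probe lost its call in shCHK2-1 without shControl replicate 3 or without replicate 1 or 2 of that line.

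Counted per target, with both hairpins required to pass in the same direction, 8 of 10 probes were higher than shControl for ATM (22.5% of all probes), 8 for ATR (23.3%), 9 for CHEK1 (25.6%), 8 for CHEK2 (23.6%) and 9 for TP53BP1 (23.7%). The 10 probes include MT1H and the dim MT1E probe, which passed the filter only through hairpin lines. The median difference of the 10 probes ran from 0.69 in sh53BP1-1 to 1.55 in shATR-3, against 0.01 and 0.04 over all probes in the same lines. The genes were chosen with earlier results of these data known, so these medians are a description only. They include fitted values of MT1H and the dim MT1E probe, for which shControl was not above background. Without the 24 arrays of the kinase lines, normalized and fitted again, the sh53BP1 lines differed from shControl by 2.74 and 2.87 in MT1G and by 1.65 in MT1E in sh53BP1-1, and no call of those lines was lost.

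**Figure D3:**
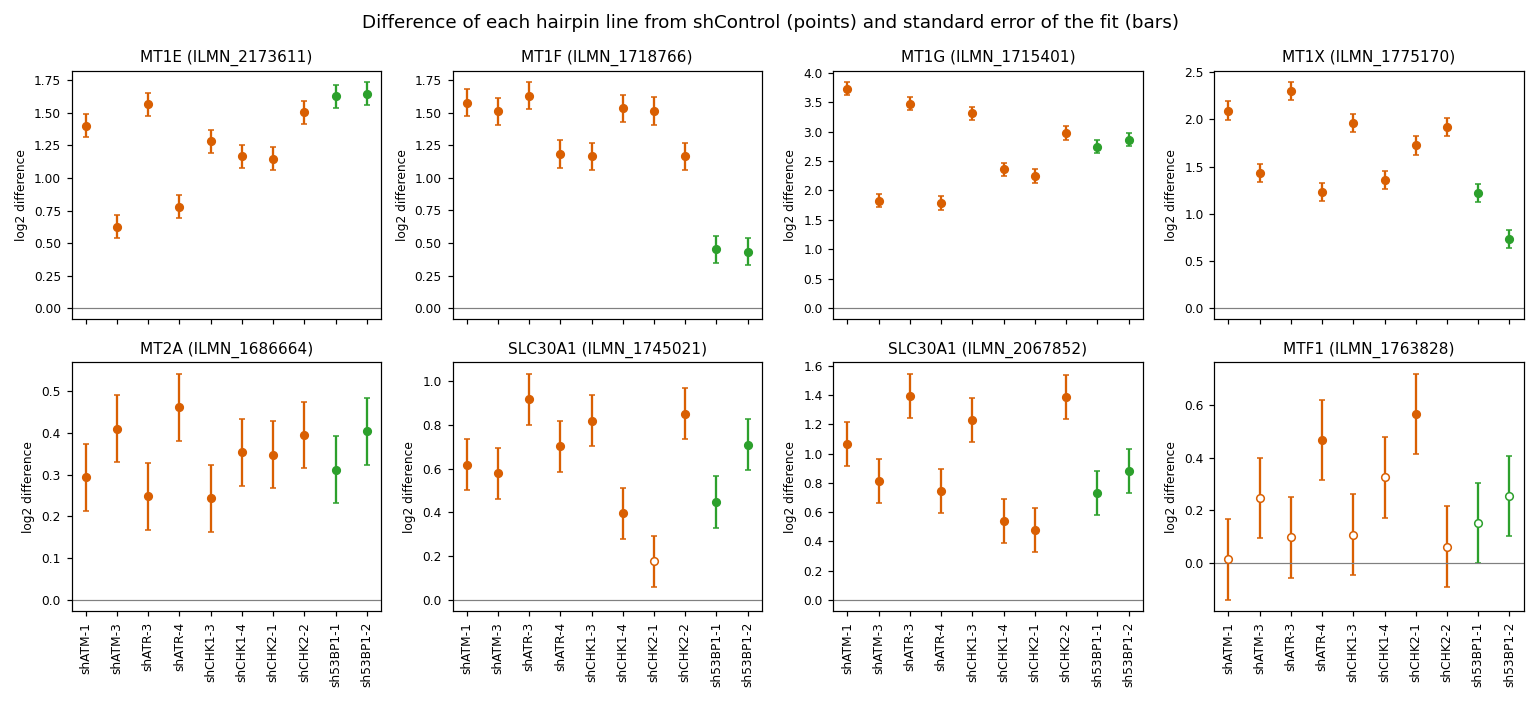
Each panel plots the log2 difference of the 10 hairpin lines from shControl at 1 probe (points) with the standard error of the fit (bars); filled points passed at an adjusted p of 0.05 and open points did not. MT1G lies between 1.79 and 3.73 in all 10 lines, while MTF1 passes in 2 lines only; probes not above background in shControl are left out.

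Wild type, the other control, gave larger differences for some of these genes. With both hairpins required, 8 of 10 probes were higher than wild type for ATM (19.8% of all probes), 9 for ATR (20.6%), 10 for CHEK1 (23.2%), 8 for CHEK2 (21.6%) and 10 for TP53BP1 (17.3%). The 10 probes again include MT1H and the dim MT1E probe, neither above background in wild type. In single lines, the share of all probes above wild type was 32.4% in shATM-1, 27.9% in shATM-3, 32.5% in shATR-3, 28.6% in shATR-4 and 32.4% in shCHK1-3. It was 30.6% in shCHK1-4, 30.3% in shCHK2-1, 33.0% in shCHK2-2, 23.4% in sh53BP1-1 and 20.9% in sh53BP1-2. MT1G was 6.63-fold (shATR-4) to 25.5-fold (shATM-1) above wild type and MT1X 4.47-fold (sh53BP1-2) to 13.2-fold (shATR-3). MT2A was 1.59-fold to 1.85-fold above it. MTF1 was higher than wild type in 8 of 10 lines, by up to 0.82 in shCHK2-1, and its calls in shATR-3, shCHK1-3 and sh53BP1-1 ended without wild type replicate 1 or 2, shATR-3 replicate 2, shCHK1-3 replicate 2 or sh53BP1-1 replicate 2 or 3 (0.14 to 0.42). These 3 calls also ended without the filter on dim probes (limma adjusted p 0.0825, 0.0727 and 0.0523), that in shATR-3 with the deposited values (0.0536) and at a detection p under 0.05 (0.0505), and that in shCHK1-3 with only the compared groups (0.102). With the deposited values the MTF1 difference in shCHK2-1 was 0.49. Calls of the dim MT1E probe ended in shCHK1-4 without wild type replicate 1 or 2 or replicate 1 or 3 of that line, in shATM-1 without its replicate 3 and in sh53BP1-1 without its replicate 1. Wild type was not above background at that probe, so no size is given.

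The scrambled hairpin itself was compared with no hairpin. MT1X was higher in shControl than in wild type by 1.43 ± 0.10 (SE, n = 3), MT1G by 0.94 ± 0.11 and MT2A by 0.43 ± 0.08 (limma adjusted p 4.79e-13, 1.24e-07 and 0.000125). MT1E (ILMN_2173611) was lower (-0.26 ± 0.09, limma adjusted p 0.0281). That call ended without wild type replicate 1 or 3 or shControl replicate 1 or 2 (-0.27 to -0.18). It also ended without the 24 arrays of the kinase lines (limma adjusted p 0.0555) and with only the compared groups in the fit (0.126). The 4 of 10 probes called compare with 28.1% of all probes. MT1F read 0.06 ± 0.10 and the SLC30A1 probes 0.28 and 0.09, and MTF1 0.25, none of them called. MT1H and the dim MT1E probe were above background on 0 of 6 arrays of these 2 groups and are not compared.

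The 2 sh53BP1 lines serve as a second comparator for the 8 kinase lines, since they also carry a targeted hairpin. They lack MTAP, CDKN2A and CDKN2B signal, so here too the hairpin target and that difference cannot be told apart. This comparison was chosen after the data were seen. Against all 4 other groups, 10 of 10 probes were higher in the kinase lines (42.0% of all probes), whereas against the sh53BP1 lines alone 3 were higher (38.4%) and 1 was lower (35.7%). The 10 include MT1H and the dim MT1E probe, which were not above background in wild type or shControl. MT1H was higher by 1.27 ± 0.09, MT1F by 0.97 ± 0.06 and MT1X by 0.78 ± 0.05, in 8 of 8 lines each by group mean (limma adjusted p 1.7e-13, 2.54e-15 and 6.14e-14). The 8 of 8 is against the mean of the 2 sh53BP1 lines. For MT1X, sh53BP1-1 alone (11.73) lay beside shATR-4 (11.74), and their arrays overlapped. At MT1H the sh53BP1 arrays stood near background (5.46 to 5.82, above it on 5 of 6). The size of its difference without background correction was not tested for this comparator. MT1E (ILMN_2173611) was lower by test (-0.45 ± 0.05), in 8 of 8 lines. MT1G did not pass (-0.092, 95% interval -0.22 to 0.04), nor did MT2A (-0.014, interval -0.11 to 0.08), SLC30A1 (0.055 and 0.15), MTF1 (0.033) or the dim MT1E probe (-0.30). The tests and intervals of this comparison rest on the spread between arrays within groups, not on the spread between lines. Group means of MT1G ran from 11.11 to 13.06 over the kinase lines, and 4 of 8 lay above the sh53BP1 mean (12.13).

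**Figure D4:**
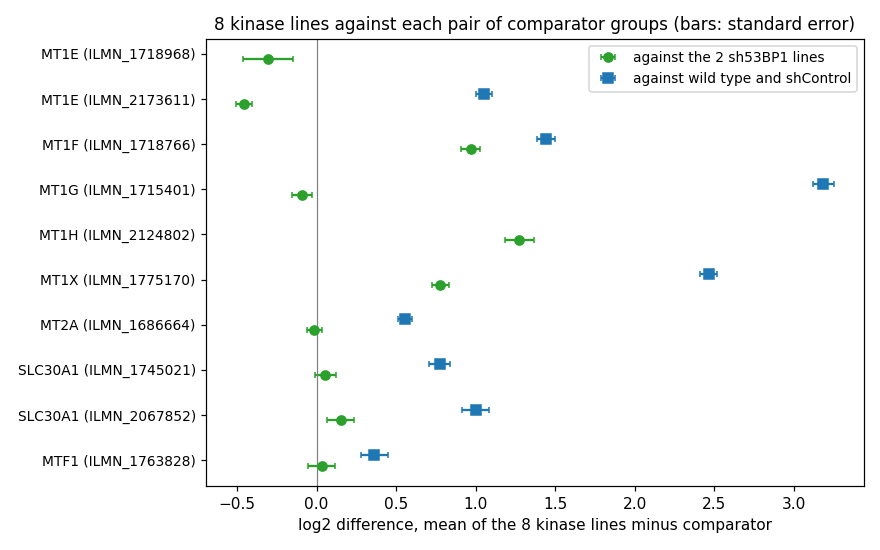
Points give the log2 difference between the mean of the 8 kinase lines and the mean of the sh53BP1 lines (circles) or of wild type and shControl (squares), with standard errors as bars; squares are left out for the probes not above background in both controls. MT1G differs from the sh53BP1 lines by -0.092, while MT1F (0.97), MT1H (1.27) and MT1X (0.78) lie to the right for the circles as well. The bars reflect the spread between arrays within groups, not between lines.

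Each kinase was then compared with the 6 lines of the other kinases, all of which carry MTAP, CDKN2A and CDKN2B signal. These tests rest on the spread between arrays within groups and leave out the spread between hairpins of 1 kinase. For ATM, 2 of 10 probes were called (16.1% of all probes): MT1F higher (0.18 ± 0.06, limma adjusted p 0.042) and MT1E (ILMN_2173611) lower (-0.23). For MT1E the ATM hairpins stood apart, with group means of 13.87 in shATM-1 and 13.10 in shATM-3 against 13.25 to 14.04 in the 6 other lines, and each hairpin was not tested alone. For MT1F the mean of shATR-3 (10.85) lay above those of shATM-1 (10.80) and shATM-3 (10.74). For ATR, 1 was called (3.63%), the first SLC30A1 probe (0.24 ± 0.07, limma adjusted p 0.0451). Its means in shCHK2-2 (8.16) and shCHK1-3 (8.13) lay between those of shATR-3 (8.23) and shATR-4 (8.01). For CHEK2, 1 was called (8.98%), MT1E (ILMN_2173611, 0.19), and for CHEK1 0 (6.05%) by limma, with 2 of 10 at an unadjusted p under 0.05. The MT1E means of shCHK2-1 (13.62) and shCHK2-2 (13.97) lay within the range of the 6 other lines, from shATM-3 (13.10) to shATR-3 (14.04). The MT1F call ended without any 1 of 11 arrays (0.13 to 0.18), the SLC30A1 call without any 1 of 16 (0.21 to 0.25) or on the 24 arrays of the kinase lines fitted alone (0.24), and the CHEK2 call of MT1E without shCHK2-1 replicate 2 or shCHK2-2 replicate 1 (0.16 and 0.17).

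The hairpins of 1 kinase also differed from each other, with the same cell line check in both. MT1G read 13.00, 13.16 and 13.01 in shATM-1 against 11.32, 11.29 and 10.86 in shATM-3, and 12.76, 12.88 and 12.77 in shATR-3 against 11.08, 11.04 and 11.22 in shATR-4. It read 12.65, 12.67 and 12.60 in shCHK1-3 against 11.70, 11.54 and 11.82 in shCHK1-4, and 11.36, 11.66 and 11.69 in shCHK2-1 against 12.24, 12.34 and 12.34 in shCHK2-2. None of these pairs overlapped. The MT1G difference was -1.90 ± 0.11 for shATM-3 minus shATM-1, -1.69 for shATR-4 minus shATR-3, -0.95 for shCHK1-4 minus shCHK1-3 and 0.74 for shCHK2-2 minus shCHK2-1. Of 10 probes, 4 were called between the ATM hairpins (42.5% of all probes), 8 between the ATR hairpins (40.1%), 5 between the CHEK1 hairpins (31.2%) and 7 between the CHEK2 hairpins (44.2%). At the second SLC30A1 probe, shATR-3 read 8.26, 7.86 and 8.14 against 7.42, 7.49 and 7.39 in shATR-4, and shCHK2-2 read 8.25, 7.92 and 8.05 against 7.18, 7.16 and 7.17 in shCHK2-1. MT1F went the other way from MT1G between the CHEK1 hairpins (10.47, 10.27 and 10.43 in shCHK1-3 against 10.66, 10.75 and 10.86 in shCHK1-4), a call that ended with only the compared groups in the fit (limma adjusted p 0.0775). Between the sh53BP1 lines 1 was called (6.64%), MT1X, at -0.48 ± 0.10 (limma adjusted p 0.00107). MT1X read 11.79, 11.79 and 11.59 in sh53BP1-1 and 11.33, 11.18 and 11.21 in sh53BP1-2.

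Other zinc transporters were read from lists named for this purpose, with earlier results of these data known. In these lists and those further below, each gene was read by its tested probe of highest mean signal. Shares and medians over all probes count every tested probe. Of the other zinc exporters, 4 of 9 were measured, and per line 2 to 3 were higher and 0 to 1 lower than shControl, with a median difference of 0.36 to 0.71 against 0.01 to 0.06 over all probes. Of all probes, 27.5% to 34.9% were higher and 26.0% to 32.9% lower per line. SLC30A5, which loads zinc into the secretory pathway, was higher in 10 of 10 lines, by 0.73 to 1.18, with a group mean of 8.89 in shControl and 8.94 in wild type. SLC30A6, its partner in the secretory pathway, was higher in 9 of 10 lines. SLC30A9 was higher in the 2 sh53BP1 lines and lower in 3 kinase lines.

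Of the zinc importers, 10 of 14 were measured, and per line 1 to 4 were higher and 2 to 5 lower than shControl (median difference -0.12 to 0.19), shares that include those of all probes. SLC39A8, a plasma membrane importer of zinc and other divalent metals, was lower in 10 of 10 lines, with differences from -2.45 (shCHK1-4) to -0.72 (sh53BP1-1). The shControl mean (10.86) was itself above wild type (9.72) by 1.15 ± 0.13 (limma adjusted p 2.52e-08), and the sh53BP1 means (10.15 and 10.01) lay above wild type. SLC39A11 was lower in 10 of 10 lines (-1.30 to -0.65), with 7.96 in shControl and 7.89 in wild type. SLC39A3 was higher in the 8 kinase lines and SLC39A7, which releases zinc from the endoplasmic reticulum, in 6 of them. Neither was higher in a sh53BP1 line. No other metallothionein was measured: 5 of 9 were on the array and 0 passed the filter.

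**Figure D5:**
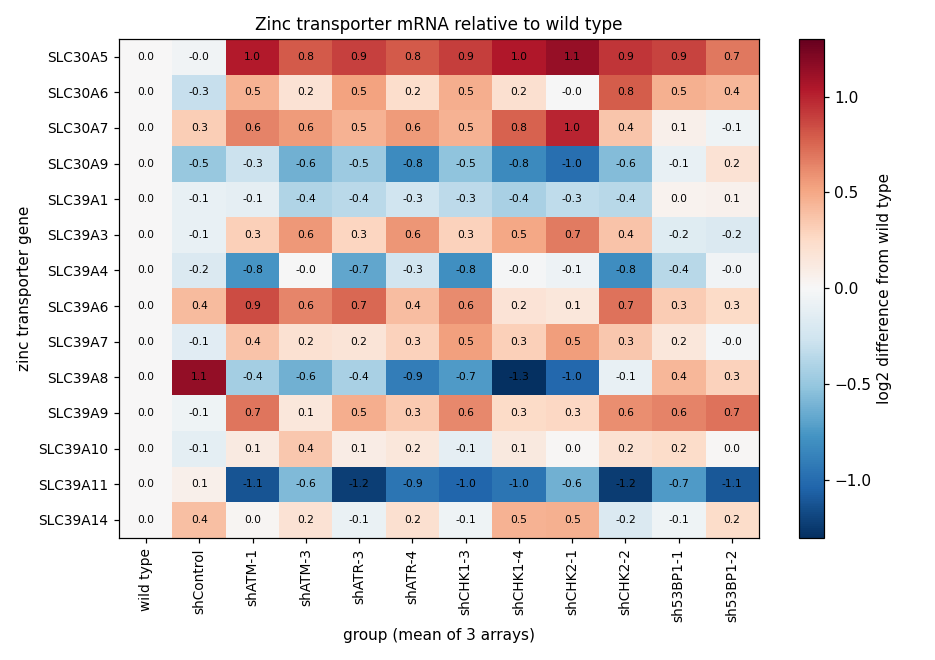
Cells give the group mean of each measured zinc transporter gene (rows) minus its wild type mean, on the log2 scale, for 12 groups of 3 arrays (columns); red is higher and blue lower than wild type. SLC30A5 is red in all 10 hairpin lines directed at a gene and SLC39A11 blue in the same lines, while SLC39A8 is highest in shControl.

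Genes whose 12 group means ran most like those of MT2A, by Pearson correlation, were RRP12 (0.956), FABP5 (0.924), TRIM11 (0.914), MED24 (0.913) and MAT2A (0.908). For SLC30A1 (ILMN_1745021) they were RRP1 (0.945), AUP1 (0.931), TMEM177 (0.930), EXOSC4 (0.923) and PPRC1 (0.922). Over the 8 kinase lines alone, the correlation with MT2A was 0.821 for RRP12 and 0.302 for TRIM11, and with SLC30A1 it was 0.926 for RRP1. These correlations describe groups that share controls, arrays and cell identity, and carry no test.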

How the data were processed

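RNA of 36 arrays was grouped by the labels (12 groups of 3 biological replicates). The deposited signal is intensity per probe without normalization, judged from its values; beside it stands a detection p-value, per the file headers. The deposited series values are log2 and matched quantile-normalized log2 intensity within 0.0013; how the authors made them is not stated in the labels or headers. All 72 value columns were joined by label.

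Background correction, quantile normalization and the log2 step were done by limma's neqc (version 3.58.1), which took an offset of 16 and inferred the negative controls through detection p. Probes with 1 gene symbol and detection p under 0.01 on all 3 arrays of a group were kept (14872). All 12 group means were fitted to 36 arrays with lmFit and eBayes, with Benjamini-Hochberg adjustment per contrast at 0.05; the fit was tested on simulated data. The 3 arrays per group limit the precision. Gene symbols came from the platform annotation, and promoters from RefSeq (GRCh38.p14). R 4.3.3, the data.table package (1.17.8), Python 3.11.15 and matplotlib 3.10.9 were used.

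The members, the gene lists and the tests were chosen with earlier results of these data known. Named genes were every member, up to 4 genes of each list called by both hairpins of several targets or between the controls, the 5 most alike genes of MT2A and SLC30A1, and the label checks. Genes next to the chromosome 16 cluster were added after the data were seen. Alternatives were the deposited values, no background correction, other filters, the replicate number as a block, 1 probe per gene, all detected probes, only the compared groups, and each array left out. The replicate numbers carried no pairing: residuals of arrays with 1 number correlated at -0.00132 on average, against 0.000721 otherwise.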

Additional observations from a re-analysis of the deposited data

Results flagged for a closer look

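Where the 2 hairpins of a target differed by test (limma, adjusted by Benjamini-Hochberg over all probes), the differences are given here as log2 values, second hairpin minus first, 3 arrays each. No explanation was tested.

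Between shATM-3 and shATM-1 they were -1.90 for MT1G, -0.66 for MT1X, -0.42 for MT1H and -0.78 for MT1E (ILMN_2173611). Between shATR-4 and shATR-3 they were -1.69 for MT1G, -1.07 for MT1X, -0.90 for MT1H, -0.45 for MT1F, -0.79 and -1.02 for MT1E (ILMN_2173611 and ILMN_1718968), -0.65 for SLC30A1 (ILMN_2067852) and 0.21 for MT2A.

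Between shCHK1-4 and shCHK1-3 they were -0.95 for MT1G, -0.60 for MT1X, 0.37 for MT1F, and -0.42 and -0.69 for SLC30A1 (ILMN_1745021 and ILMN_2067852). Between shCHK2-2 and shCHK2-1 they were 0.74 for MT1G, 0.35 and 0.88 for MT1E (ILMN_2173611 and ILMN_1718968), 0.67 and 0.91 for SLC30A1 (ILMN_1745021 and ILMN_2067852), -0.35 for MT1F and -0.50 for MTF1. Between sh53BP1-2 and sh53BP1-1 the value was -0.48 for MT1X. The dim MT1E probe (ILMN_1718968) was above background on 2 of 3 arrays of shATR-4 and of shCHK2-1. Some of the differences shrank by over 1.5 times with the deposited values. The dim MT1E probe then gave -0.36 (ATR hairpins) and 0.34 (CHEK2), and MT1H -0.23 (ATM) and -0.48 (ATR). The second SLC30A1 probe gave -0.46 (CHEK1) and 0.60 (CHEK2), and MTF1 -0.31 (CHEK2).

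Single arrays decided 3 of these calls. The MT2A call between the ATR hairpins ended without shATR-3 replicate 2 or 3 or any 1 array of shATR-4 (0.16 to 0.23), the MT1H call between the ATM hairpins without shATM-1 replicate 2 or 3 or shATM-3 replicate 1 or 3 (-0.44 to -0.31), and the call of the dim MT1E probe between the CHEK2 hairpins without shCHK2-1 replicate 3 or shCHK2-2 replicate 1 (0.55 and 0.60). The MT2A and MT1H calls also ended without the filter on dim probes (limma adjusted p 0.0540 and 0.0736) and on the 24 arrays of the kinase lines alone (0.0673 and 0.0560). With only the compared groups, calls ended for MT2A between the ATR hairpins (0.0975), for the dim MT1E probe between the CHEK2 hairpins (0.0694), and for MT1F (0.0775) and the first SLC30A1 probe (0.0553) between the CHEK1 hairpins. Calls were gained for the dim MT1E probe between the ATM hairpins without shATM-1 replicate 1 or shATM-3 replicate 2 (-0.99 and -0.90), for MTF1 without shATR-3 replicate 2 (0.53) or shCHK1-3 replicate 2 (0.44), and for MT1H without shCHK1-3 replicate 1 (0.47).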

How the results depend on the processing

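The 10 member probes gave 310 differences over 31 comparisons, and 305 of them kept direction and call with the deposited log2 values, where 91 called differences moved by over 1.5 times. Over the differences called in the main fit, the median was 0.899 of the reported size. Without background correction the counts were the same. Calls ended for 9 values without a filter on dim probes, 2 at a detection p under 0.05 and 1 with all detected probes. With only the compared groups in the fit, 8 calls ended and 2 were gained. With the replicate number as a block, 1 call ended (SLC30A1, ATR against the other kinases, adjusted p 0.0527) and 1 was gained (MTF1 between the ATR hairpins, adjusted p 0.0483).

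The count of 1 for ATR against the other kinases fell to 0 without a filter on dim probes, at a detection p under 0.05, under the replicate block, with all detected probes, with only the compared groups, and on the 24 arrays of the kinase lines alone. For ATM against the other kinases, the count went from 2 to 1 without the filter. Between the CHEK1 hairpins it went from 5 to 3 with only the compared groups. Under the wider filters the differences were the same and more probes entered the adjustment; the other causes were not tested. With the sh53BP1 lines as the comparator of the kinase lines, the count went from 10 to 4, and the direction turned for MT2A (-0.014), MT1G (-0.092) and MT1E (-0.30 at ILMN_1718968, -0.45 at ILMN_2173611); this comparator was added after the data were seen. Of those, the last passed the test.

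Leaving out each array in turn gave 2735 of 2880 values with the same direction and call, 72 that lost and 10 that gained a call. Counts of called probes ran from 3 to 5 for shControl against wild type. Against wild type they ran from 8 to 8 for ATM, 8 to 9 for ATR, 8 to 10 for CHEK1, 8 to 9 for CHEK2 and 9 to 10 for TP53BP1. Against shControl they ran from 8 to 8 for ATM and ATR, 8 to 9 for CHEK1, 7 to 8 for CHEK2 and 8 to 9 for TP53BP1. Between hairpins they ran from 3 to 5 for ATM, 7 to 8 for ATR, 5 to 6 for CHEK1, 6 to 7 for CHEK2 and 1 to 1 for TP53BP1. Against the other kinases they ran from 1 to 2 for ATM, 0 to 1 for ATR and CHEK2 and 0 to 0 for CHEK1, and for the 8 kinase lines against the other groups from 10 to 10.

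Signal near background limits MT1H and the dim MT1E probe, signal near the top of the scale limits MT2A, and 3 arrays per group limit all values.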

Other observations

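Genes of copper handling moved in both directions. Of 11 measured, 1 to 4 were higher and 2 to 5 lower than shControl per line by limma, while 27.5% to 34.9% of all probes were higher and 26.0% to 32.9% lower. SLC31A2, a copper transporter of endosomal membranes, was higher in the 8 kinase lines (1.23 to 2.08) and lower in the sh53BP1 lines (-1.26 and -0.55). ATOX1, the copper chaperone that feeds the secretory pathway, was lower in 10 of 10 lines (-1.35 to -0.49), with shControl above wild type by 0.60. STEAP3, a metalloreductase, was lower in the 8 kinase lines and in no sh53BP1 line. COX17, a mitochondrial copper chaperone, was lower in 7 lines, 6 of them kinase lines.

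Of 11 measured genes that answer to metal and oxidative stress, 0 to 1 were higher and 5 to 8 lower than shControl per line (median difference -0.86 to -0.17), against 26.0% to 32.9% of all probes lower, but 8 of 11 were higher in shControl than in wild type. SLC7A11, the cystine importer, was lower than shControl in 10 of 10 lines (2.33-fold to 7.98-fold), with shControl above wild type by 2.10. GCLC, which encodes the catalytic subunit for glutathione synthesis, gave -2.42 to -1.92, with shControl above wild type by 1.80, and against wild type it was lower in 8 of 10 lines (-0.61 to -0.12 over all 10). TXNRD1, thioredoxin reductase, was lower than shControl in 10 lines and HMOX1, heme oxygenase, in 9. Against wild type, 2 to 6 of the 11 genes were higher and 2 to 5 lower per line, with 20.9% to 33.0% of all probes higher and 23.8% to 32.3% lower.

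Among 4 measured genes beside the metallothionein cluster on chromosome 16, a list added after the data were seen, BBS2 was lower than shControl in the 8 kinase lines, NUP93 higher in 6 lines and OGFOD1 higher in 9. In shControl, NUP93 was itself below wild type (-0.48) and OGFOD1 was not called (-0.21). Against wild type, NUP93 was higher in the 2 sh53BP1 lines and lower in shCHK2-1, OGFOD1 was higher in shCHK2-2 and the sh53BP1 lines, and BBS2 was lower in the 8 kinase lines. MTAP, CDKN2A and CDKN2B differed between the kinase lines and shControl on the same arrays, and their part in these values was not tested.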
